A study of Mus musculus with 18 samples.

Results

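Mouse CD8+ T cells that received a guide kit against Nr4a1 (labelled KO) were compared with cells that received a scrambled guide (labelled WT), both kept overnight in 50 µM lithocholic acid (LCA). The comparison takes 6 of the 18 libraries of the series by their labels, 3 KO LCA50 and 3 WT LCA50, and describes 11651 tested genes of 24537 listed. All cells were naive CD8+ T cells that were given guide RNA with Cas9 protein and then activated through CD3 and CD28, so the WT cells had also been through guide delivery and activation. The other libraries, used here for comparison, are KO and WT cells at 10 µM LCA (LCA10) and KO and WT cells without LCA (control), with 3 libraries in each group. The labels call the treatment both a knockdown and a knockout. They give no source for the replicates, so p-values here measure only how far these libraries vary, and that variation may be technical. Gene counts do not show an edited sequence, so the KO label could not be checked from them.

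Nr4a1 encodes Nur77, an orphan nuclear receptor that T cells make within a short time of T cell receptor signalling. It binds DNA as a monomer at the NBRE motif or as a dimer, also with the retinoid X receptors, and is known in CD8+ T cells as a brake on activation, cytokine production and metabolism. LCA is a secondary bile acid that gut bacteria make from a primary bile acid of the liver. The deposited comparison asks how cells given the guide kit against Nr4a1 and cells given the scrambled guide respond to it.

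Library totals were 4113713, 5144994 and 5139903 counts in KO LCA50 and 4666774, 4919966 and 4340061 in WT LCA50. The cells matched their label: CD8 T cell markers summed to 3677 to 4543 CPM (counts scaled to a common library size) in KO LCA50 and 3949 to 4514 in WT LCA50, with 0 of 8 markers at 0. Counts over 1470 olfactory, pheromone and trace amine receptor genes, not known as T cell genes, came to 164, 47.2 and 93.4 CPM in KO LCA50 and 121, 139 and 223 CPM in WT LCA50. KO LCA50 replicate 1 stood apart from its group. Squared differences of counts between libraries were divided by the variance expected from counting and averaged over genes. They came to 8.10 and 7.76 for replicate 1 against replicates 2 and 3, and to 3.53 between replicates 2 and 3. In a principal component analysis of the 6 libraries, the first component (31.9% of variance) placed it at -23.1, with KO LCA50 replicates 2 and 3 at 31.9 and 19.04 and the WT LCA50 libraries at 2.87, -10.0 and -20.7. The second component (25.2%) kept the groups apart, with -31.7, -7.71 and -8.01 in KO LCA50 and 21.8, 12.5 and 13.1 in WT LCA50.

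Nr4a1 itself (chromosome 15, 101253902 to 101274795, GRCm38) had 15.7, 7.53 and 7.07 CPM in KO LCA50, against 18.02, 14.9 and 7.90 CPM in WT LCA50. The groups overlapped. The change was -0.45 ± 0.33 (log2 fold change ± standard error, KO LCA50 over WT LCA50), with an adjusted p of 0.604 in edgeR's quasi-likelihood test with Benjamini-Hochberg adjustment. An edited gene can still give transcripts. Of the other members of its family and their partners, the tested ones were Nr4a2 at -0.17, Nr4a3 at 0.51, Rxra at 0.41 and Rxrb at -0.05, and none was called.

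Cells labelled KO differed from WT cells in 226 genes at LCA50, 1.94% of those tested. Called genes, those below an adjusted p of 0.05 in edgeR's quasi-likelihood test, are described as risen or fallen, and every change is a log2 fold change of KO over WT with its standard error. More genes rose than fell: 165 were higher in KO LCA50 (1.42%) and 61 lower (0.524%). Changes of 2-fold or more were found in 49 of the genes that were higher and 14 of those that were lower. The smallest p-values belonged to Il7r and Upp1 among the genes that rose and to Lrrc32 and Lyz2 among those that fell. The KO and WT libraries did not overlap for 218 of the 226 called genes, and for 1850 of all 11651 tested genes (15.9%). At an unadjusted p under 0.05 there were 1571 genes. The median standard error of a change was 0.156.

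The number of calls moved with the libraries. It was 106 without WT LCA50 replicate 2, 122 without WT LCA50 replicate 3 and 370 without KO LCA50 replicate 1, and 52 when the 6 libraries were fitted without the other 12. With receptor gene background as a covariate 278 genes were called, 162 of them among the 226, and the part of that background in single genes was not tested further. A set of 47 genes, 35 higher and 12 lower, was called in the same direction in each of 16 other settings listed in the methods. It held Il7r, Il24, Upp1, Axl, Anxa1, Nlrp6, Gstt1, Hif1a, Srgn and Serpinb9 among the higher genes and Lrrc32, Lyz2, Spry1, Rgcc, Cd6, Prkch, Nfatc1, Hivep3, Dgkd and Slc14a1 among the lower.

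**Figure D1:**
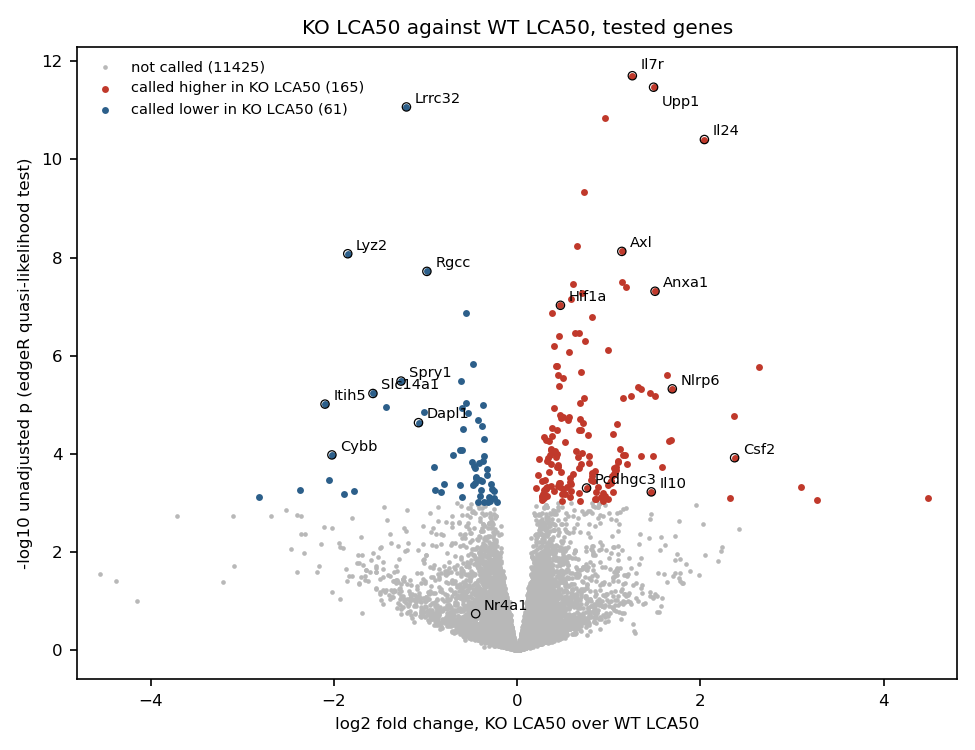
Each point is 1 of 11651 tested genes: the x axis is the log2 fold change of KO LCA50 over WT LCA50 and the y axis is -log10 of the unadjusted p of edgeR's quasi-likelihood test. Red points are the 165 genes called higher in KO LCA50, blue points the 61 called lower, and circled genes are labelled; Il7r, Upp1 and Il24 stand at the top on the right, Lrrc32 and Lyz2 on the left, and Nr4a1 near the base.

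The genes that rose included cytokines and a cytokine receptor. Il7r, the receptor chain for the survival cytokine IL-7, had 82.5, 97.6 and 97.2 CPM in KO LCA50, against 44.8, 37.2 and 34.1 CPM in WT LCA50. Every KO library lay above every WT library, and the rise was 1.26 ± 0.12 (edgeR quasi-likelihood adjusted p = 1.97e-08; chromosome 15, 9506159 to 9529941, GRCm38). Il24, a cytokine of the IL-10 family, had 36.0, 37.4 and 40.4 CPM in KO LCA50, against 9.01, 8.03 and 10.6 CPM in WT LCA50. The groups were far apart and the rise was 2.04 ± 0.21 (adjusted p = 9.14e-08; chromosome 1, 130882074 to 130887411). Il10, an immunosuppressive cytokine, had 5.96, 7.92 and 9.62 CPM in KO LCA50, against 2.79, 3.21 and 2.48 CPM in WT LCA50. It did not overlap either and rose by 1.46 ± 0.39 (adjusted p = 0.0364), though it lost its call without any of the 3 WT libraries in turn, such as replicate 3 (1.38, adjusted p = 0.146), without KO LCA50 replicate 2 (1.46, 0.0754) and without KO LCA50 replicate 3 (1.29, 0.163). Csf2, which encodes GM-CSF, had 18.8, 3.57 and 5.89 CPM in KO LCA50, against 2.36, 1.81 and 1.13 CPM in WT LCA50. Replicate 1 was highest by far, and the rise of 2.37 ± 0.54 (adjusted p = 0.0132) stood at 1.41 without that library (adjusted p = 0.174). It also lost its call without WT LCA50 replicate 2 (2.39, adjusted p = 0.0698) and without WT LCA50 replicate 3 (2.15, adjusted p = 0.0950).

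Of 15 tested effector cytokines, Csf2 and Il10 rose, none fell, and the list's median of 0.03 stood beside 0.0028 over all tested genes. Without KO LCA50 replicate 1 and WT LCA50 replicate 3, 1 member rose and the median was -0.12. Ifng, the antiviral interferon of T cells, was at -0.25 and Tnf at 0.28 without a call. Il12rb2, a chain of the receptor for IL-12, rose by 0.43 ± 0.07, with 450, 489 and 558 CPM in KO LCA50 and 342, 388 and 383 CPM in WT LCA50. Receptors of the TNF family rose as well: Tnfrsf4 (OX40) by 1.18 ± 0.25 and Tnfrsf9 (4-1BB) by 0.37 ± 0.09, and so did Traf1, a signal adaptor bound by such receptors (0.50 ± 0.09). Tnfrsf4 had 68.6, 24.4 and 35.1 CPM in KO LCA50, against 14.6, 18.1 and 23.5 CPM in WT LCA50, and replicate 1 was again the highest. Without KO LCA50 replicate 1 it stood at 0.68 and kept its call, whereas without WT LCA50 replicate 1 it was at 1.03 (edgeR adjusted p = 0.0639) and without WT LCA50 replicate 2 at 1.16 (adjusted p = 0.0753). Tnfrsf9 lost its call without WT LCA50 replicate 1 (0.30, adjusted p = 0.131), without WT LCA50 replicate 3 (0.39, 0.0797) and without KO LCA50 replicate 1 (0.25, 0.0949). Both are costimulatory receptors but were counted in the list of T cell receptor-induced genes. Of the 14 tested genes of the list of other costimulatory receptors and ligands none was called, with a median of 0.26 and 10 members above 0. Of 15 inhibitory receptors, Cd274, which encodes the checkpoint ligand PD-L1, rose by 0.70 ± 0.15 and none fell.

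Genes with other roles that rose by 2-fold or more included Upp1, a uridine phosphorylase of nucleotide salvage. It had 54.1, 64.0 and 61.5 CPM in KO LCA50, against 22.1, 20.3 and 21.7 CPM in WT LCA50. The groups were clearly apart, with a rise of 1.49 ± 0.14 (edgeR adjusted p = 1.97e-08; chromosome 11, 9118008 to 9136170). Anxa1, a calcium- and phospholipid-binding protein that dampens inflammation, had 41.7, 57.0 and 65.2 CPM in KO LCA50, against 20.6, 16.9 and 20.5 CPM in WT LCA50. It rose by 1.50 ± 0.21 (adjusted p = 4e-05) without overlap. The crosslinking enzyme Tgm2 had 461, 293 and 262 CPM in KO LCA50, against 101, 133 and 123 CPM in WT LCA50. The rise was 1.50 ± 0.21 (adjusted p = 0.00171), and replicate 1 was the highest library. Axl, a receptor tyrosine kinase that clears dying cells in other lineages, rose by 1.14 ± 0.15, with 42.2, 41.4 and 37.1 CPM in KO LCA50 and 17.8, 18.5 and 18.3 CPM in WT LCA50.

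Genes averaging under 5 CPM over the 6 libraries or overlapping between groups, such as Ly6c1 (2.64) and Thbs1 (1.68), were set aside in choosing the 15 largest rises. Beside Il7r, Il24, Il10, Csf2, Upp1, Anxa1 and Tgm2, the 15 held Nlrp6 (1.69 ± 0.31), an innate immune sensor, Tmem40 (1.65 ± 0.36), the glutathione transferase Gstt1 (1.63 ± 0.29), the germline gene Piwil2 (1.45 ± 0.27), Susd1 (1.35 ± 0.31), the sphingomyelinase-like gene Smpdl3b (1.35 ± 0.25), the matricellular gene Nov (1.32 ± 0.24) and the adhesion receptor P-selectin, Selp (1.25 ± 0.23). None of these 8 overlapped between the groups. Tmem40 lost its call without WT LCA50 replicate 1 (1.34, edgeR adjusted p = 0.0597) and without KO LCA50 replicate 3 (1.39, 0.0762). Susd1 lost its call without WT LCA50 replicate 1 or 3 and without KO LCA50 replicate 3, at changes of 1.22 to 1.28. Nov, for example, had 48.1, 28.7 and 27.7 CPM in KO LCA50, against 13.1, 13.3 and 15.4 CPM in WT LCA50.

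**Figure D2:**
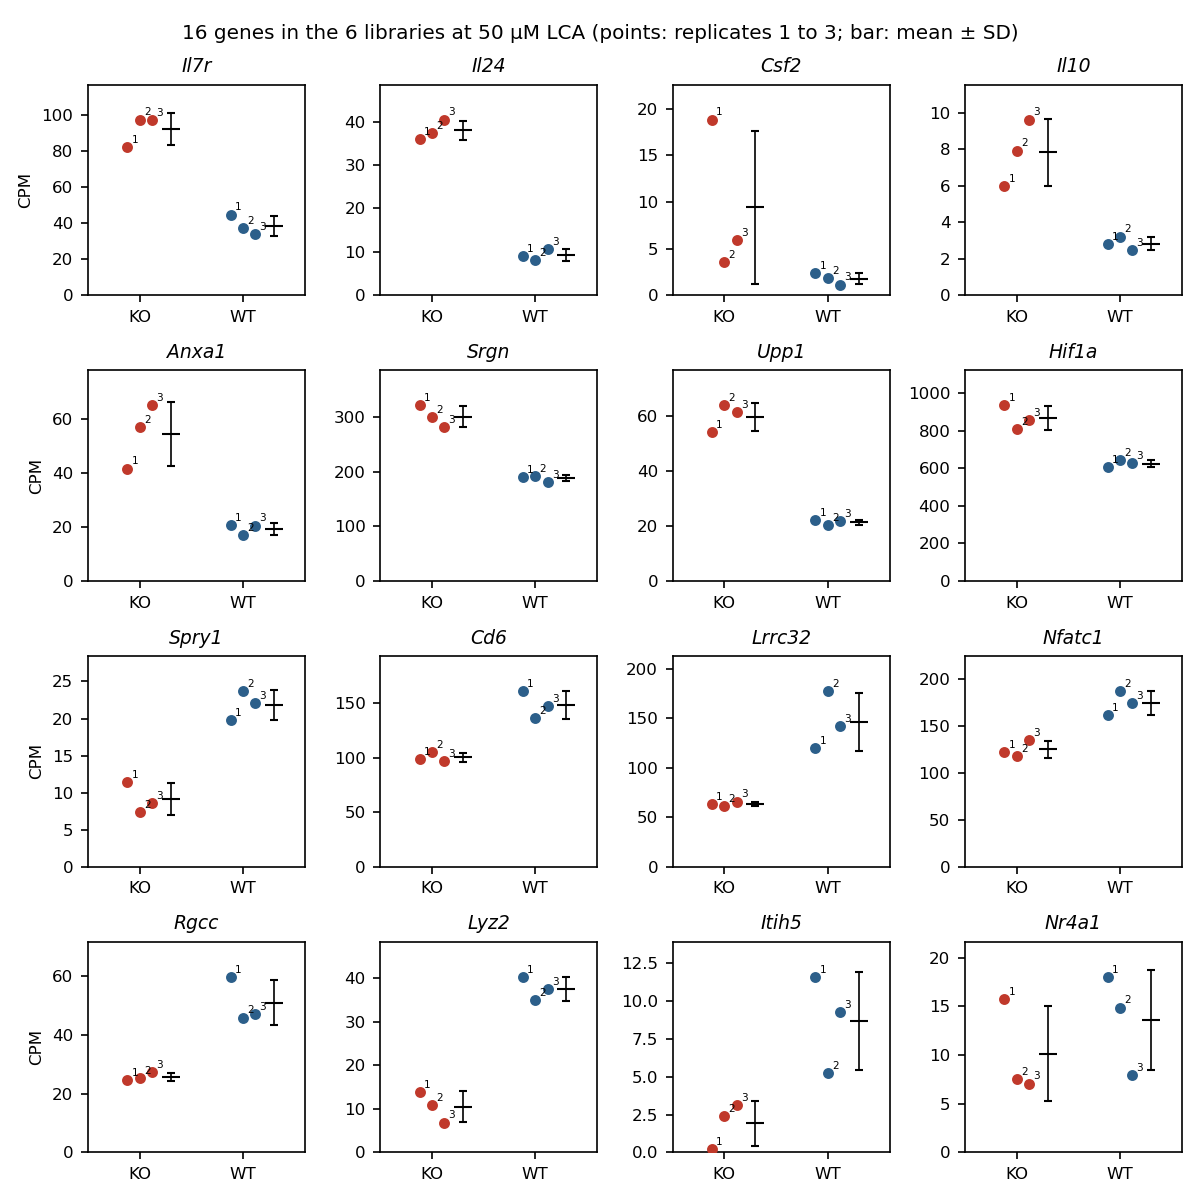
Each panel shows 1 gene in the 6 libraries at 50 µM LCA, as CPM on a linear axis from 0, with KO on the left (red) and WT on the right (blue); points are replicates 1 to 3 and the bar is the mean ± SD. KO lies above WT without overlap in the first 8 genes (Il7r to Hif1a) and below it without overlap in Spry1 to Itih5, Nr4a1 overlaps, and Csf2 shows replicate 1 at 18.8 CPM.

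The genes that fell included several that restrain signalling, put together here after their values were seen. They do not stand for such genes as a group. The tested Dusp phosphatase genes lay on both sides of 0 without a call. Dusp1 was at -0.46, Dusp4 at -0.73, Dusp2 and Dusp6 at 0.06 and Dusp5 at 0.18, while Cd274 rose by 0.70. Lrrc32, which encodes GARP, the surface anchor of latent TGF-beta, had 63.4, 61.0 and 65.8 CPM in KO LCA50, against 120, 178 and 142 CPM in WT LCA50. The groups were well apart, and the fall was -1.21 ± 0.12 (edgeR adjusted p = 3.31e-08; chromosome 7, 98489305 to 98501831). Spry1, an inhibitor of receptor signalling to the MAP kinases, had 11.4, 7.33 and 8.64 CPM in KO LCA50, against 19.7, 23.7 and 22.1 CPM in WT LCA50. It fell by 1.27 ± 0.23 (adjusted p = 0.00103; chromosome 3, 37639947 to 37644599) without overlap. Cd6, a receptor that binds and tunes the T cell receptor complex, fell by 0.56, with 97.0 to 105 CPM in KO LCA50 and 136 to 161 CPM in WT LCA50. Ubash3b, a phosphatase that damps T cell receptor signalling, stood at -0.62 ± 0.16, with 23.8, 45.2 and 31.4 CPM in KO LCA50 and 57.3, 49.4 and 48.5 CPM in WT LCA50. Ubash3b lost its call without each of the WT LCA50 libraries in turn, without KO LCA50 replicate 1 (-0.43, edgeR adjusted p = 0.135), without KO LCA50 replicate 3 (-0.57, 0.134) and with exon length offsets (-0.55, 0.0784).

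Rgcc, a cell cycle regulator, had 24.6, 25.4 and 27.3 CPM in KO LCA50, against 59.9, 46.0 and 47.2 CPM in WT LCA50. The fall was -0.98 ± 0.14 (edgeR adjusted p = 2.22e-05) with no overlap. The protein kinase C genes Prkch (-0.37 ± 0.07) and Prkca (-0.59 ± 0.12), the diacylglycerol kinase Dgkd (-0.43 ± 0.09) and the zinc finger gene Hivep3 (-1.02 ± 0.20) fell too. Itih5, a hyaluronan-binding matrix gene, had 0.238, 2.38 and 3.14 CPM in KO LCA50, against 11.6, 5.22 and 9.26 CPM in WT LCA50, a fall of -2.10 ± 0.40. The 15 largest falls, chosen as the rises were, also held Slc14a1, a urea transporter (-1.57 ± 0.29), Cers6, a ceramide synthase (-0.90 ± 0.23), the calpain Capn5 (-0.83 ± 0.22) and the interferon-inducible gene Ifi203 (-0.70 ± 0.16). Cers6 lost its call without any 1 of the LCA50 libraries except KO LCA50 replicate 1. Capn5 lost it without WT LCA50 replicate 1 or 2 and without KO LCA50 replicate 1 (-0.62) or 2, and Ifi203 without WT LCA50 replicate 1 or 3 and without KO LCA50 replicate 1 (-0.51).

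Among 28 tested immediate early genes and factors induced by the T cell receptor, 3 rose and 2 fell, with a median of 0.06. Irf4, a factor whose level follows receptor strength, had 160, 132 and 161 CPM in KO LCA50, against 112, 111 and 110 CPM in WT LCA50, a rise of 0.44 ± 0.10. Nfatc1, the calcium-responsive factor of activated T cells, had 122, 118 and 135 CPM in KO LCA50, against 162, 187 and 174 CPM in WT LCA50, a fall of -0.48 ± 0.08. Zfp36, which degrades cytokine transcripts, had 8.58, 20.2 and 19.04 CPM in KO LCA50, against 26.4, 28.3 and 29.6 CPM in WT LCA50, a fall of -0.80 ± 0.20. KO LCA50 replicate 1 was the lowest library for Zfp36, and without it the change was -0.51 (edgeR adjusted p = 0.135). Its call was also lost without WT LCA50 replicate 2 (-0.79, 0.107) and without WT LCA50 replicate 3 (-0.76, 0.118). Irf4 lost its call without WT LCA50 replicate 2 or 3 and without KO LCA50 replicate 3, at changes of 0.39 to 0.44. The groups did not overlap in these 3 genes, and the list as a whole stood on both sides of 0.

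The naive and memory list split in the same way, with 4 of 23 tested members higher, 2 lower and a median of -0.02. Beside Il7r, the rises included the memory marker Ly6c1 (2.64 ± 0.46, at 2.86, 7.92 and 11.98 CPM in KO LCA50 and 1.72, 0.402 and 1.58 CPM in WT LCA50) and the factor Lef1 (0.52 ± 0.11). Lef1 had 228, 143 and 153 CPM in KO LCA50, against 114, 119 and 131 CPM in WT LCA50, and without KO LCA50 replicate 1 it stood at 0.30 (edgeR adjusted p = 0.0612). Ly6c1 has a close copy, Ly6c2 (1.10, not called), and reads could be split between them. Id3, a factor of naive and memory cells, fell by 0.90 and Dapl1, a gene of naive-type CD8+ T cells, by 1.08, with Dapl1 at 6.91, 9.51 and 9.82 CPM in KO LCA50 and 22.7, 17.3 and 15.8 CPM in WT LCA50. Id3 lost its call without WT LCA50 replicate 1 (-0.75, adjusted p = 0.0601) and without KO LCA50 replicate 3 (-0.85, adjusted p = 0.0870). Tcf7, the leading factor of naive and memory cells, was at -0.31 and Ccr7 at 0.08 without a call.

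Of 12 effector and exhaustion transcription factors, Id2 and Bhlhe40 rose and none fell, while 165 of all 11651 tested genes rose. The list was split, with 6 members above 0 and a median of 0.08. Id2 and Bhlhe40 were also called higher in control and at LCA10, where the list's medians were 0.15 and 0.22. Id2, a factor of effector differentiation, had 464, 626 and 629 CPM in KO LCA50, against 403, 377 and 344 CPM in WT LCA50, a rise of 0.61 ± 0.09 (edgeR adjusted p = 3.38e-05). Bhlhe40, which drives cytokine production and mitochondrial fitness, rose by 0.35 ± 0.08. Both groups of libraries were apart for each gene.

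Of 16 tested cytotoxic granule genes, 3 rose and none fell, and 13 lay above 0 with a median of 0.29. The granule proteoglycan Srgn had 322, 300 and 282 CPM in KO LCA50, against 191, 192 and 181 CPM in WT LCA50, a rise of 0.68 ± 0.10 (edgeR adjusted p = 0.000181). The granzyme B inhibitor Serpinb9 rose by 0.58 ± 0.09 and its relative Serpinb6b by 0.78 ± 0.18. Serpinb6b lost its call without WT LCA50 replicate 2 or 3 and without KO LCA50 replicate 2 or 3, at changes of 0.62 to 0.74. The killing effectors themselves depended on the library. Prf1, the pore-forming perforin, had 5.01, 30.3 and 33.2 CPM in KO LCA50, against 17.4, 17.9 and 22.8 CPM in WT LCA50, and Gzma, granzyme A, had 34.1, 140 and 124 CPM in KO LCA50, against 91.0, 73.5 and 61.2 CPM in WT LCA50. In both, KO LCA50 replicate 1 was the lowest of the 6 libraries and replicates 2 and 3 the highest. Without KO LCA50 replicate 1 and WT LCA50 replicate 3, 7 of the 16 rose with a median of 0.52; with receptor gene background as a covariate 2 rose and 1 fell, with a median of -0.04.

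Glycolysis and hypoxia genes lay higher in KO LCA50 almost without exception in direction, by small amounts. Of 23 tested members 5 rose and none fell, 22 lay above 0 (5900 of 11651 over all tested genes) and the median was 0.21. Other lists leaned the same way. Above 0 lay 38 of 42 ribosomal protein genes, 24 of 28 p53 targets, 17 of 20 presentation genes and 17 of 22 NRF2 targets. Medians were larger for cytotoxic granule genes (0.29) and costimulatory receptors and ligands (0.26). Cholesterol synthesis and mitosis genes leaned the other way, each with 6 of 24 above 0. The glycolysis and hypoxia list also lay higher in KO at the other doses. At LCA10 4 members rose, none fell and the median was 0.16, while in control none was called and the median was 0.11. Over all tested genes the medians were -0.0043 at LCA10 and -0.00087 in control. Hif1a, the oxygen-regulated subunit of hypoxia-inducible factor, had 934, 808 and 858 CPM in KO LCA50, against 606, 641 and 626 CPM in WT LCA50. No library overlapped, and the rise was 0.47 ± 0.07 (edgeR adjusted p = 6.41e-05). Hif1a was also called higher at LCA10 (0.39) and stood at 0.18 in control without a call. The glycolytic enzyme Gapdh had 304, 299 and 299.6 CPM in KO LCA50, against 248, 236 and 240 CPM in WT LCA50, a rise of 0.32 ± 0.07. Aldoa, the glycolytic aldolase (0.24 ± 0.06), Bnip3, a mitophagy receptor (0.27 ± 0.07), and Pkm, pyruvate kinase (0.21 ± 0.05), rose as well. Over the 16 other settings Hif1a was called in 16, Gapdh in 14, Aldoa in 11, Pkm in 9 and Bnip3 in 5. Gapdh lost its call without WT LCA50 replicate 2 (0.30, edgeR adjusted p = 0.0555), and Aldoa without WT LCA50 replicate 2 or 3 and without KO LCA50 replicate 2, at 0.21 to 0.23. Hk2, the inducible hexokinase, was the one member below 0, at -0.04. In the fit of the 6 libraries alone 1 member was called, with receptor gene background as a covariate 2 and with DESeq2 8, while the median stayed between 0.17 and 0.22 in the 5 settings in which lists were recounted. Other called genes known to respond to hypoxia, named after their values were seen, were P4ha2 (1.09 ± 0.22) and Plod2 (0.49 ± 0.13), which modify collagen, Ero1l (0.68 ± 0.14), Ak4 (0.58 ± 0.15), Ndrg1 (0.48 ± 0.13), Bnip3l (0.44 ± 0.11) and Egln1 (0.27 ± 0.07). Among the same 16 settings P4ha2 was called in 15, Ero1l in 13, Ak4, Ndrg1 and Bnip3l in 9 each, Plod2 in 8 and Egln1 in 6.

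Since the glycolysis and hypoxia genes lay on one side, the start sites of 3 called members with a single start in the RefSeq promoter table are shown (GRCm38.p6, each 300 bases, 5′ to 3′ on the gene's strand). Capitals mark ACGTG on either strand (CACGT), the only form of the core of the hypoxia response element that was searched. They are Hif1a on the plus strand at chr12:73907617-73907916, Bnip3 on the minus strand at chr7:138909457-138909756 and Gapdh on the minus strand at chr6:125165724-125166023.
Hif1a: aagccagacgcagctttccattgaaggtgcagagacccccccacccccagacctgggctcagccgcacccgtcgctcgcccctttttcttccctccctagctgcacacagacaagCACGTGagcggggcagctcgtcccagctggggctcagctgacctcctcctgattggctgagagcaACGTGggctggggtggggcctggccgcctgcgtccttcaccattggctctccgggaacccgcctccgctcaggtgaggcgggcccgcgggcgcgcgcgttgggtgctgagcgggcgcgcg
Bnip3: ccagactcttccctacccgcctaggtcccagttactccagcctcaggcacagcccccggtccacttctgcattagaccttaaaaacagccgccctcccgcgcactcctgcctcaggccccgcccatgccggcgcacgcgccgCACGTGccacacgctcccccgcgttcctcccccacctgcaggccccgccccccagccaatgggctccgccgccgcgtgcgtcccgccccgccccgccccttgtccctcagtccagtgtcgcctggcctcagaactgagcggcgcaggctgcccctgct
Gapdh: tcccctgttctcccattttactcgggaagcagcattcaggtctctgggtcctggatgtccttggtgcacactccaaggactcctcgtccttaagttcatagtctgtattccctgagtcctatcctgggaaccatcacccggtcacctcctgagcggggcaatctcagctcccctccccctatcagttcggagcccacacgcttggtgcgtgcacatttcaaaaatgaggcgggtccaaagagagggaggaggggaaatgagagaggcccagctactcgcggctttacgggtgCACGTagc
Hif1a held 3 matches, Bnip3 2 and Gapdh 1. The palindrome CACGTG, marked in Hif1a and in Bnip3, is a single site that counts as 2 overlapping matches. Of the list's members 22 had a promoter in the table and 16 of those (72.7%) held the core in at least 1 promoter, against 36 of 102 called higher genes (35.3%), 8 of 45 called lower genes (17.8%), 2691 of 9005 tested genes (29.9%) and 19.6% of all 32851 promoters. The Nur77 motif NBRE, AAAGGTCA on either strand (TGACCTTT), was in the promoters of 0 of the 147 called genes with an entry, 107 of 9005 tested genes (1.19%) and 1 of the 22 list members. Over all promoters of the table the share was 1.51%. These are letter matches in a short window and say nothing of binding. The list was drawn up as glycolysis and hypoxia genes, and 5 of its 23 tested members were called at LCA50. Its share of the hypoxia core therefore describes the make-up of the list and not the change in KO LCA50.

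**Figure D3:**
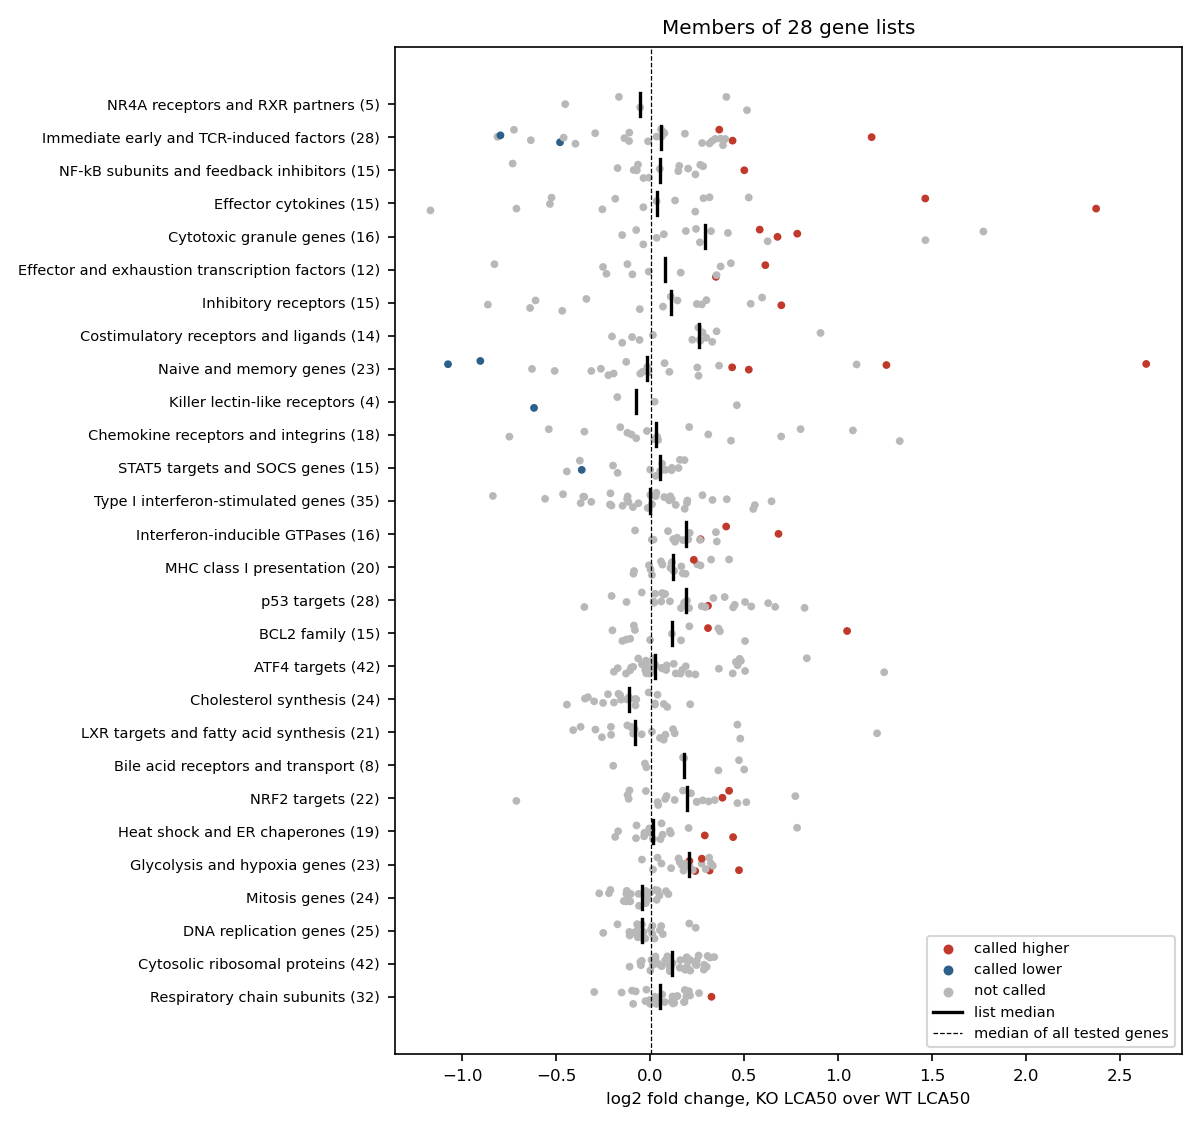
Each row is 1 of 28 gene lists with its number of tested members, each point a member at its log2 fold change of KO LCA50 over WT LCA50 (red called higher, blue called lower, grey not called), and the black bar the list's median; the dashed line is the median of all tested genes. Glycolysis and hypoxia genes lie right of the line with 22 of 23 members above 0, while type I interferon-stimulated genes and ATF4 targets spread around it.

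Some redox and metal-binding genes rose. Fth1, the iron-storing ferritin heavy chain, had 1979, 2146 and 1950.1 CPM in KO LCA50, against 1578, 1589 and 1487 CPM in WT LCA50, a rise of 0.38 ± 0.06. G6pdx, which makes NADPH, rose by 0.42 ± 0.10, and with Fth1 made 2 of 22 tested NRF2 targets (median 0.20, none lower). G6pdx lost its call without WT LCA50 replicate 2 or 3 and without KO LCA50 replicate 1, at 0.33 to 0.39. Outside the list, the metallothioneins Mt1 (0.71 ± 0.10) and Mt2 (0.83 ± 0.19), the thioredoxin inhibitor Txnip (0.63 ± 0.10), Glrx (0.55 ± 0.11) and Sod1 (0.50 ± 0.13) rose, named after their values were seen. Mt1 and Txnip were called in each of the 16 other settings, Glrx in 15, Mt2 in 12 and Sod1 in 7. Of the 42 tested ATF4 targets, 24 cholesterol synthesis genes, 21 liver X receptor targets and fatty acid synthesis genes, and 8 bile acid receptors and transporters, none was called; the medians were 0.02, -0.11, -0.08 and 0.18. The first 3 lists moved with the setting. With receptor gene background as a covariate 4 ATF4 targets rose (median 0.17, 37 of 42 above 0), 2 cholesterol synthesis genes fell (median -0.31, 0 of 24 above 0) and 1 liver X receptor or fatty acid gene fell (median -0.20). Without KO LCA50 replicate 1 and WT LCA50 replicate 3 all 3 medians changed sign. They were then -0.09 for ATF4 targets with none called, 0.05 for cholesterol synthesis with 1 higher and 0.06 for liver X receptor and fatty acid genes with 2 higher. Fasn, the fatty acid synthase, had 395, 510 and 544 CPM in KO LCA50, against 590, 666 and 672 CPM in WT LCA50, and at -0.41 ± 0.12 missed the threshold in edgeR (adjusted p = 0.0787). It passed with DESeq2 (-0.42, adjusted p = 0.0125), with no filter (-0.40), with receptor gene background as a covariate (-0.53, edgeR adjusted p = 0.0438) and without KO LCA50 replicate 3 (-0.50, edgeR adjusted p = 0.0385).

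Interferon-inducible GTPases lay above 0 in 15 of 16 cases with a median of 0.19, and 3 guanylate-binding proteins rose. Gbp10 had 95.3, 87.7 and 95.2 CPM in KO LCA50, against 66.5, 52.4 and 54.4 CPM in WT LCA50, a rise of 0.68 ± 0.13. Gbp8 rose by 0.40 ± 0.11 and Gbp4 by 0.27 ± 0.07. These genes have close paralogs, and reads could be split between copies. Of 35 type I interferon-stimulated genes none was called, and 18 lay above 0. B2m, the light chain of MHC class I, rose by 0.23 ± 0.06 and was the only one of 20 presentation genes called. Of 28 p53 targets Bax, a death effector, rose (0.31 ± 0.08), and of 15 BCL2 family genes Bax and Bcl2a1b (1.05 ± 0.22) rose. None of 24 mitosis genes, 25 replication genes and 42 ribosomal protein genes was called, with medians of -0.04, -0.04 and 0.12. Of 32 respiratory chain genes Cox7a2 rose. Of the other lists, 1 of 4 killer lectin-like receptors (Klrc1, -0.62 ± 0.14) and 1 of 15 STAT5 targets and SOCS genes (the kinase Pim2, -0.36 ± 0.08) fell, 2 of 19 heat shock and chaperone genes rose (Edem1, 0.29 ± 0.06, and Selenok, 0.44 ± 0.10), 1 of 15 NF-kB genes rose (Traf1, above) and 0 of 18 chemokine receptors and integrins were called. Of the genes named here, Gbp8, Gbp4, B2m, Bax, Cox7a2, Klrc1, Pim2, Edem1 and Selenok each lost the call without at least 1 of the 6 libraries. Edem1 lost it without WT LCA50 replicate 2 and Pim2 without WT LCA50 replicate 3, while Klrc1 lost it without WT LCA50 replicate 2 or KO LCA50 replicate 1. Gbp8 and Bax lost it without any WT LCA50 library or KO LCA50 replicate 1. B2m lost it without WT LCA50 replicate 2 or 3 or KO LCA50 replicate 3. Gbp4, Cox7a2 and Selenok lost it without WT LCA50 replicate 2 or 3 or KO LCA50 replicate 2 or 3.

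Genes of other cell types differed at low levels. Lyz2, the lysozyme of myeloid cells, had 13.8, 10.9 and 6.87 CPM in KO LCA50, against 40.3, 34.95 and 37.5 CPM in WT LCA50. The groups were far apart and the fall was -1.85 ± 0.24 (edgeR adjusted p = 1.08e-05; chromosome 10, 117277541 to 117282272). Cybb, the catalytic subunit of the phagocyte oxidase, had 3.10, 1.98 and 1.18 CPM in KO LCA50, against 6.65, 7.03 and 11.5 CPM in WT LCA50, a fall of -2.02 ± 0.46 that lost its call without WT LCA50 replicate 3 (-1.73, adjusted p = 0.101) and without KO LCA50 replicate 3 (-1.73, adjusted p = 0.0904). The 16 myeloid markers summed to 101 to 128 CPM in KO LCA50 and 139 to 148 CPM in WT LCA50, most of it Cst3, with Camp at 0 in all 6 libraries and Ngp at 0 in 5. Of the 11 tested, 1 fell, 2 lay above 0 and the median was -0.36. Red cell and platelet markers summed to 4.75 to 7.87 CPM in KO LCA50 and 12.4 to 47.4 CPM in WT LCA50, and natural killer and gamma delta T cell markers to 12.3 to 14.5 CPM in KO LCA50 and 19.4 to 22.9 CPM in WT LCA50. CD4 T cell markers summed to 77.1 to 105 CPM in KO LCA50 and 71.1 to 78.3 CPM in WT LCA50, and B cell markers to 6.48 to 9.30 CPM in KO LCA50 and 10.2 to 10.4 CPM in WT LCA50. In bulk libraries fewer cells of a type and less RNA per cell cannot be told apart, and the part of other cells in these falls was not tested. Of 8 tested CD8 T cell markers, Cd8b1 rose (0.28 ± 0.08) and Cd8a fell (-0.22 ± 0.06), both close to the threshold. Both lost the call without WT LCA50 replicate 2 or 3 or KO LCA50 replicate 2 or 3, and Cd8a also without WT LCA50 replicate 1.

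Some calls share their reads. The called genes included 17 gamma protocadherins and 3 predicted genes that overlap at one place on chromosome 18, with changes of 0.76 to 1.15. These genes share their last exons, and leaving out Pcdhgc3 they had 50 to 63, 58 to 63 and 94 to 101 counts in KO LCA50 and 35 to 39, 24 to 30 and 35 to 40 counts in WT LCA50. Counting them apart, 145 other genes rose. Likewise Mir147 lies within AA467197, Txnip overlaps Gm15441 and Cox7a2 overlaps Tmem30a, all called higher, and Lilr4b has a close paralog in Lilrb4a.

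Short genes lay higher and long genes lower in KO LCA50. Across the 11380 genes with an exon length, the Spearman correlation of length with the change was -0.24 at LCA50, 0.0991 in control and 0.135 at LCA10, where genes are not independent replicates. Among the 2848 genes with the shortest exons the median change was 0.08, with 68 genes higher and 8 lower, and among the 2845 with the longest -0.07, with 18 higher and 25 lower. The median exon length was 2502 bases for genes called higher, 4473 bases for genes called lower and 3281 bases for all tested genes. Genes called higher include the overlapping ones on chromosome 18, which were not set apart here. After each library was adjusted for exon length, a step chosen after seeing the data, the correlation was -0.0179 and 252 genes were called (175 higher, 77 lower) and 194 were among the 226. Of the called genes named by rule, Tnfrsf4, Tnfrsf9, B2m, Bax, Cox7a2 and Ubash3b lost their calls with that adjustment.

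The same guide contrast was made at LCA10 and without LCA in libraries that share none with the LCA50 contrast. It called 77 genes at LCA10 (0.661%) and 73 in control (0.627%). Of the 226 genes called at LCA50, 47 (20.8%) were called the same way at LCA10, which is 61.0% of the calls there, and 37 (16.4%) in control, 50.7% of the calls there. None was called in opposite directions. The sign was shared with LCA10 by 208 (92.0%, against 53.6% of all tested genes) and with control by 207 (91.6%, against 55.9%). All the same, 170 of the 226 genes were called at LCA50 alone, and those calls do not show that the genes differ between doses. The 226 include the 20 overlapping genes on chromosome 18 that share reads, so these counts are not of independent genes.

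In all 3 contrasts 28 genes were called, 18 higher and 10 lower. Il7r changed by 1.26 at LCA50, 1.26 at LCA10 and 1.05 in control, and Upp1 by 1.49, 1.27 and 1.31 in that order. Il24 changed by 2.04, 1.71 and 1.70, Axl by 1.14, 1.04 and 0.71, and the leukotriene receptor Ltb4r1 by 1.19, 1.26 and 0.88. Among the lower genes, Lyz2 stood at -1.85, -1.66 and -1.77, Spry1 at -1.27, -1.10 and -1.32, Lrrc32 at -1.21, -0.74 and -0.58, Rgcc at -0.98, -1.05 and -0.83 and Klrc1 at -0.62, -0.57 and -1.17. The others were Ttc39c, Pcdhgc3, P4ha2, Adam8, Ctla2a, Il12rb2, Id2, Maged2, H2-Q10, Lilr4b, Themis, Bhlhe40, Prkch, Cd6, Pak6, Dapl1, Ctss and Amica1. The median ratio of the change in control to that at LCA50 was 0.516 over the LCA50 calls, and that of LCA50 to control 0.777 over the control calls; choosing genes by a call in 1 contrast lowers such a ratio. For LCA10 the ratios were 0.546 and 0.899.

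**Figure D4:**
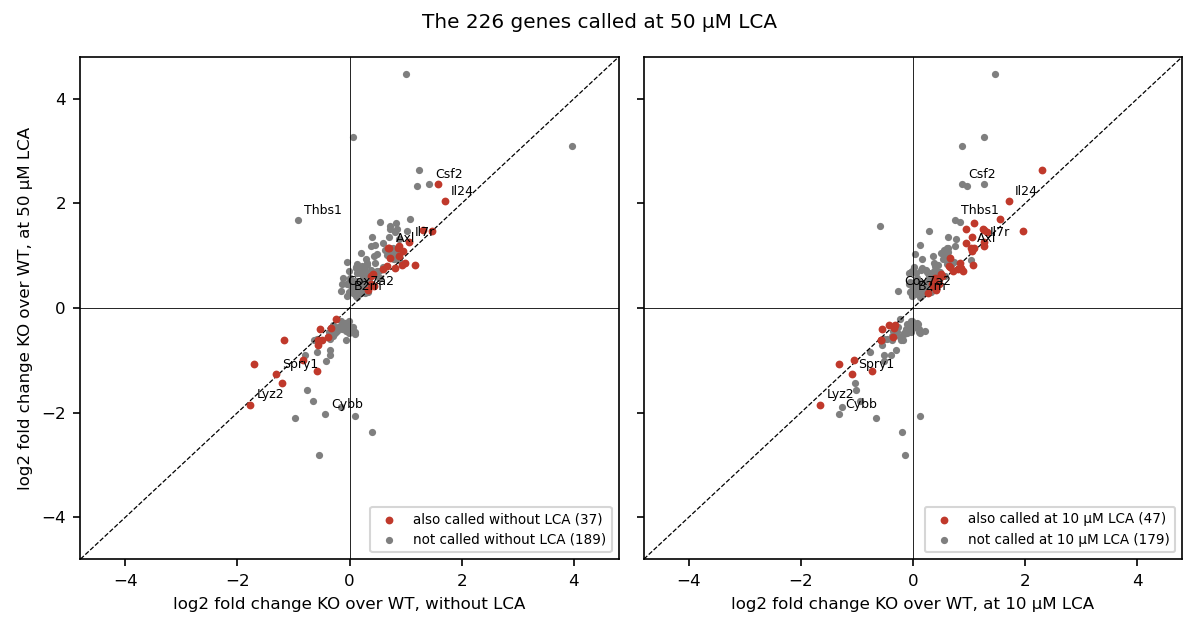
The 226 genes called at 50 µM LCA are drawn with their log2 fold change of KO over WT at 50 µM on the y axis and without LCA (left) or at 10 µM (right) on the x axis; red points were also called at the dose on the x axis (37 and 47 genes), grey points were not, and the dashed line marks equal changes. Most points lie in the quadrants of equal sign, and Thbs1 lies above 0 at 50 µM and below 0 without LCA.

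Whether the guide effect itself differed at LCA50 was tested directly. Against the effect in control, edgeR's quasi-likelihood test called 0 genes and DESeq2 called 1, while 729 had an unadjusted p below 0.05 in edgeR. Against the mean effect at the other doses edgeR called 0 and DESeq2 called 1, while 969 had an unadjusted p below 0.05 in edgeR. Without KO LCA50 replicate 1, 6 and 14 genes were called in these tests. The smallest p against control belonged to Thbs1, a matrix glycoprotein that binds cell surfaces, with a difference of 2.60 ± 0.48 (edgeR adjusted p = 0.172). Thbs1 had 44.6, 22.6 and 10.6 CPM in KO LCA50, against 7.72, 10.6 and 5.42 CPM in WT LCA50, and 10.5, 7.73 and 8.28 CPM in KO control, against 15.3, 16.97 and 18.003 CPM in WT control. KO was the higher group at LCA50, with an overlap between KO replicate 3 and WT replicate 2, and the lower group in control without overlap. The difference stood at 1.99 without KO LCA50 replicate 1 (adjusted p = 0.0226), at 2.99 without KO LCA50 replicate 3 (adjusted p = 1.87e-05), and 0 genes were called without KO LCA50 replicate 1 and WT LCA50 replicate 3 together.

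Cox7a2, a subunit of cytochrome c oxidase, had the smallest p against the mean of the other doses, with a difference of 0.54 ± 0.10 (edgeR adjusted p = 0.108). It had 196, 217 and 227 CPM in KO LCA50, against 177, 175 and 159 CPM in WT LCA50, and 205, 195 and 193 CPM in KO control, against 232, 207 and 221 CPM in WT control. The order of the groups was turned round between the doses. The correlation of exon length with the change also had opposite signs at LCA50 (-0.24) and in control (0.0991). Cox7a2 has an exon length of 659 bases and lost its LCA50 call with exon length offsets. The part of gene length in this difference was not tested. AA467197, a small mitochondrial protein gene, followed with 0.49 ± 0.10 (adjusted p = 0.239), at 316, 254 and 261 CPM in KO LCA50 and 178, 160 and 160 CPM in WT LCA50. The other small p-values belonged to Zc3h4 (-0.55 ± 0.14) and Zfyve26 (-0.70 ± 0.18) in this test and to 9930014A18Rik (-1.56 ± 0.38) and Zfp553 (-0.80 ± 0.20) in the test against control, none of them called. Of the 226 called genes, 196 (86.7%) had the same sign in both other contrasts, against 34.5% of all tested genes. The opposite sign in both was found in 7: Cox7a2, B2m, Lockd, AW112010, Zc3h4, Rpap1 and Rtn4rl1. That share over all tested genes was not counted. Several of the 7 lay near 0 in the other contrasts, such as Lockd (-0.010 in control, -0.015 at LCA10) and B2m (-0.040, -0.020). Their signs there do not show a reversal. A difference that misses the threshold does not show equal effects at the 3 doses.

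**Figure D5:**
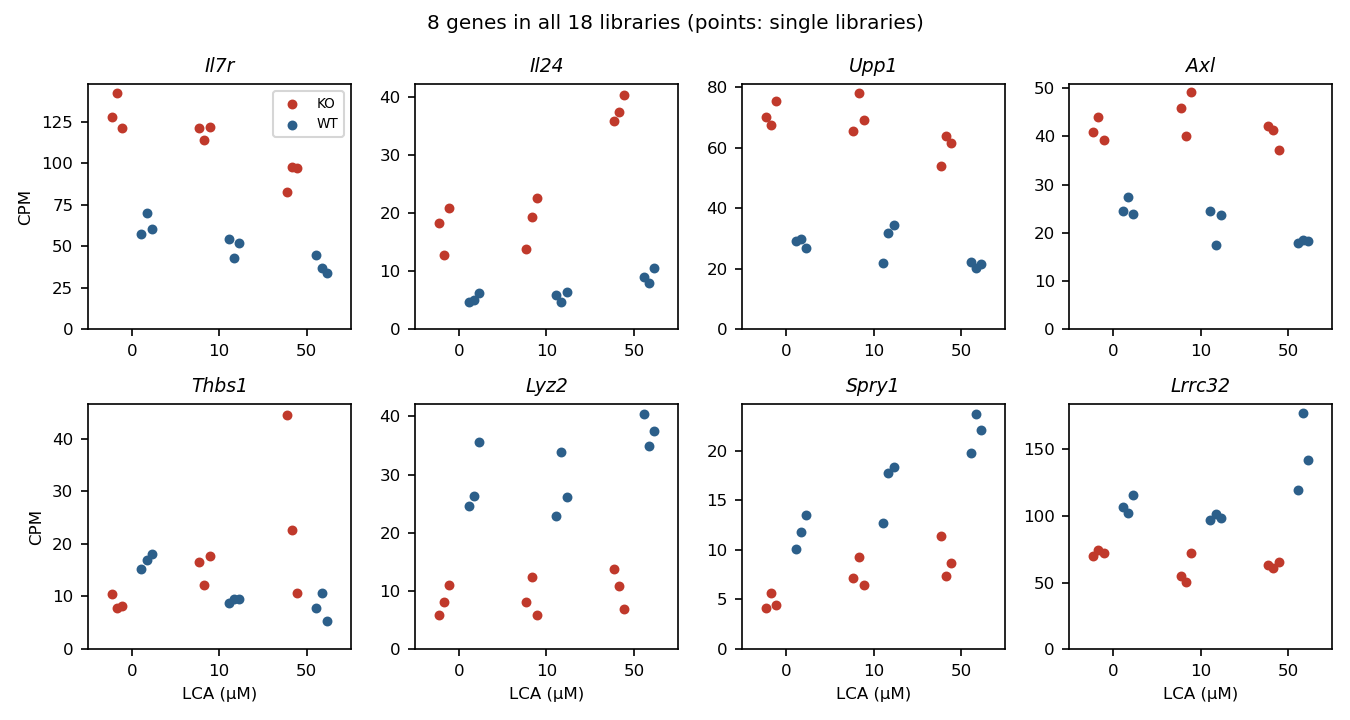
Each panel shows 1 gene in all 18 libraries as CPM on a linear axis from 0, over LCA at 0, 10 and 50 µM, with KO in red to the left of WT in blue at each dose. Il7r, Il24, Upp1 and Axl are higher in KO at each dose and Lyz2, Spry1 and Lrrc32 lower, without overlap within a dose, whereas Thbs1 is lower in KO without LCA and higher at 10 µM.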

How the data were processed

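Gene counts were measured by RNA sequencing of 18 libraries of mouse CD8+ T cells, from total RNA by an ultra-low input cDNA method, per the labels. The table the authors deposited holds raw counts for 24537 gene symbols. The submitters' processing notes name STAR, HOMER and DESeq2 and the builds GRCm38 and mm10, with no versions or roles. Strandedness and counting rules are not given in the sources used here.

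All 18 libraries entered 1 edgeR 4.0.16 model (R 4.3.3) with a mean for each of 6 groups, filterByExpr by group, TMM scaling and a robust quasi-likelihood F test. The 5 contrasts were each tested with Benjamini-Hochberg adjustment: KO against WT at each dose, and the LCA50 effect minus that in control or minus the mean of the other doses. Standard errors are the size of the log2 fold change divided by the root of its F statistic. CPM use TMM-scaled library sizes, also for summed markers, except receptor background, which uses total counts. The biological coefficient of variation was 0.0984. Intervals and p-values rest on 4113713 to 5945518 counts per library. Principal components used log2 CPM with a prior count of 2. Coordinates and promoters came from RefSeq (GRCm38; 23675 symbols matched; 147 of the 226 called genes had a promoter entry) and exon lengths from GENCODE M21.

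The members and the 34 gene lists, 6 of them of cell type markers, were chosen with earlier results of these data known. Named genes were Nr4a1, the 15 called genes at either end among those averaging 5 CPM or more, without overlap and not predicted, up to 3 called members each way of each list (for lists without a call, their 2 most abundant genes) and the 5 smallest p-values of the difference tests. Genes called in all 3 contrasts, in all settings or named with their group were added with their values known. A few genes that fall under these rules are not reported here.

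Alternatives were DESeq2 1.42.0, DESeq2 size factors in edgeR, no filter, a mean CPM of at least 5, the compared groups alone, a replicate block, leaving out each library, KO LCA50 replicate 1 and WT LCA50 replicate 3 left out together, receptor background as a covariate, Rn45s and Lars2 left out, and exon length offsets; with each of the 6 LCA50 libraries left out these are the 16 settings. glmTreat at a log2 fold change of 0.5 was the last. The length offsets and the recounting of lists were chosen after seeing the data. The code was tested on simulated data.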

Additional observations from a re-analysis of the deposited data

How the results depend on the processing

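At LCA50, 226 genes were called. DESeq2 (320), its size factors (229), a mean CPM of at least 5 (232), a fit with the replicate number as a block (199), receptor background as a covariate (278), 2 libraries left out together (214), Rn45s and Lars2 left out (227) and length offsets (252) stayed within 1.5 times that count. No filter gave 357, the compared groups alone 52 and glmTreat 15, and leaving out 1 library 106 to 370. Of the 64 called genes named by rule, none changed sign in any setting; 41 lost their call in the compared groups alone, 53 with glmTreat, and 11 to 24 without 1 library.

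For control and LCA10, no filter gave 141 and 142 calls, the compared groups alone 211 and 128, both LCA50 libraries left out 152 and 158, glmTreat 13 and 9, and leaving out 1 library 28 to 53 and 43 to 62. At LCA10, DESeq2 gave 124 and the covariate 123. Against control and against the mean of the other doses, where edgeR called 0, DESeq2 called 1 and 1, no filter 3 and 10, the covariate 5 and 4, and leaving out 1 library 0 to 6 and 0 to 14. The cause was not tested.

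Genes that were not called and lay near 0 changed sign. Ifi47 (0.01) was at -0.0014 with the block, -0.165 with the covariate, -0.0346 with length offsets and -0.0858 to 0.189 without 1 library. With both LCA50 libraries left out, Cd2 was at 0.00968, Srebf2 at 0.0481, Acly at 0.0605, Abcb1b at 0.145, Abcc1 at -0.00951. Without 1 library, Cd2 lay at -0.292 to 0.0283, Srebf2 at -0.211 to 0.0503, Acly at -0.153 to 0.0542, Abcb1b at -0.193 to 0.18, Rxrb at -0.11 to 0.0343, Itgal at -0.0242 to 0.0791.

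With the block Bax, Cd8b1 and Cd8a lost their calls and Fasn was called (adjusted p = 0.00836). Deviations of same-numbered KO LCA50 and WT LCA50 libraries correlated at -0.218, -0.0128 and -0.0657, and those of differently numbered libraries at -0.167 to 0.192. With so few libraries in a group, these values cannot decide whether the replicate numbers pair the samples. Fits that leave an arm with 2 libraries assume the spread of the other groups. Depth limits low genes: those under a few CPM rest on few counts.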
